A study of Mus musculus with 3 samples.

Results

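The values described here are those of 10 leukocyte adhesion genes in adult lung endothelial cells (ECs): *Icam1*, *Icam2*, *Vcam1*, *Madcam1*, *Sele*, *Selp*, *Selplg*, *Glycam1*, *Cd34* and *Podxl*. The genes were taken by symbol from a table of 24346 gene symbols, and each of the 10 has a row in it. The 3 libraries, S38, S44 and S52, form 1 group of freshly isolated lung ECs from wild type C57BL/6J mice, which the methods give as males of 6 to 8 weeks that received no treatment other than a labelled anti-VE-cadherin antibody injected before the organs were taken. Lungs were digested enzymatically, the cells were stained for CD31, CD45 and podoplanin, and ECs were purified by FACS. There is no other organ, stage or untreated tissue here, so no condition was compared with another, and levels in the vessel and effects of digestion cannot be told apart. Nothing states whether the 3 libraries came from separate mice, so the spread between them may be technical.

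Leukocytes leave blood by steps in which different surface proteins of the endothelium take part. Selectins catch flowing cells by binding sialylated, fucosylated and often sulfated glycans on mucin-like carriers, and immunoglobulin (Ig) superfamily proteins then bind leukocyte integrins that hold the cell. *Icam1* and *Icam2* encode ligands of the beta2 integrins, of which LFA-1 is the best known, *Vcam1* encodes a ligand of alpha4beta1 integrin, and *Madcam1* encodes the mucosal ligand of alpha4beta7 integrin. *Sele* and *Selp* encode E- and P-selectin, *Selplg* encodes PSGL-1, the main P-selectin ligand of leukocytes, and *Glycam1*, *Cd34* and *Podxl* encode mucin-like proteins that can carry selectin ligands in the high endothelial venules of lymph nodes. Lung is known for leukocyte retention in its narrow capillaries, where selectins are less needed than in venules of other organs.

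E-selectin, ICAM-1 and VCAM-1 are textbook targets of NF-kappaB in ECs exposed to cytokines, and the sequence before the start of 6 of the 10 genes was available from RefSeq (GRCm38.p6). The 250 bases before the start of *Icam1* (chr9:21015690-21015939, plus strand), *Sele* (chr1:164047984-164048233, plus strand) and *Madcam1* (chr10:79664309-79664558, plus strand) are shown because these genes share a short motif and differ widely in the levels given below. Capitals mark GGANNTTCC, a restricted form of the kappaB element searched on both strands, and TATAAA, likewise searched on both strands.
Icam1: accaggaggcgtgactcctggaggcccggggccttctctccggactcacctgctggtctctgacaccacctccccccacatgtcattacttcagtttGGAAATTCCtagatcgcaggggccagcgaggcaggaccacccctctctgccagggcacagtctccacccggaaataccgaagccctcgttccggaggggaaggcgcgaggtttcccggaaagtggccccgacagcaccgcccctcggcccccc
Sele: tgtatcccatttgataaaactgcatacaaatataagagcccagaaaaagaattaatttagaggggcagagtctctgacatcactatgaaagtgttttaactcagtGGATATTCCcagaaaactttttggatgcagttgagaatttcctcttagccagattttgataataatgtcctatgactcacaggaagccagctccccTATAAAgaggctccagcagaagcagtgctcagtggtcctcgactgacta
Madcam1: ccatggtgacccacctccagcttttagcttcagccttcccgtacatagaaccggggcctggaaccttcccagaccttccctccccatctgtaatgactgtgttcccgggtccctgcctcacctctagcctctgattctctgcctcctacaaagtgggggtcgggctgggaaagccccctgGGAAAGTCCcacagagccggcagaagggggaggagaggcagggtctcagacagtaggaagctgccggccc

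The motif GGANNTTCC began 153 bases before the RefSeq start in *Icam1* and 145 bases before it in *Sele*, and its reverse complement began 70 bases before it in *Madcam1*. It was absent from the same window of *Selp*, *Cd34* and *Glycam1*, and 3.59% of all 32851 promoter windows of this length held it. It was chosen after these sequences had been read. TATAAA was present in *Sele* alone among the 6, beginning 49 bases before its start, and in 12.4% of all windows. A match in letters is a description and not a binding site, and the 3 genes that held GGANNTTCC ranged from 525 FPKM on average (*Icam1*) to a listed value of 0 in S38 and S52 (*Madcam1*).

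The unit is FPKM, fragments scaled to gene length and library size, so that levels of different genes are compared per length. Where 3 values of a gene stand together, they are those of S38, S44 and S52 in this order. The depth behind it was estimated from the steps between low values at 37600000, 38600000 and 34200000 fragments. The endothelial marker genes were high in each library, 8 of 8 at 1 FPKM or above with summed levels of 5323 to 5991 FPKM, whereas markers of platelets, leukocytes, alveolar type 2 cells and airway cells were present and far lower in S52 than in the other libraries. Alveolar type 1 markers summed to 351, 375 and 276 FPKM, and 3 of the 5 were highest in S52. The 8 platelet markers summed to 1952, 1580 and 50.5 FPKM, and 10 leukocyte markers to 1163, 891 and 183 FPKM. Most of the leukocyte sum came from *Lyz2* alone, at 1047, 780 and 166 FPKM. The 5 alveolar type 2 markers summed to 3778, 3164 and 755 FPKM, with *Sftpc* at 3333, 2862 and 658 FPKM. The 4 airway markers summed to 2767, 2303 and 401 FPKM, with *Scgb1a1* at 2669, 2212.5 and 378 FPKM. In bulk RNA, fewer cells of a type and less RNA per cell cannot be told apart.

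The Ig superfamily ligands of leukocyte integrins were dominated by the ICAMs. *Icam2*, which encodes the short ICAM that ECs carry at rest, was at 912, 1049 and 775 FPKM, with a mean of 912 ± 137 FPKM (SD, n = 3 libraries), rank 101 of 24346. *Icam1*, the cytokine-inducible ICAM, was at 453, 568 and 554 FPKM, with a mean of 525 ± 62.7 FPKM (SD, n = 3), rank 197. The ranges of the 2 genes did not overlap, and *Icam2* was the higher in every library, by 1.01, 0.88 and 0.48 on the log2(FPKM + 1) scale in S38, S44 and S52. The gap was narrowest in S52, where *Icam2* had its lowest value while *Icam1* stayed near its highest.

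*Vcam1* was expressed at a lower level, 39.1, 51.3 and 42.5 FPKM, with a mean of 44.3 ± 6.32 FPKM (SD, n = 3), rank 1961. *Icam1* exceeded it in every library, with a mean difference of 3.54 ± 0.12 (SD, n = 3) on the log2(FPKM + 1) scale. *Madcam1* was listed at 0 in S38 and S52 and at 0.0203 FPKM in S44, a value that corresponds to about 1 fragment at the estimated depth. If 0 stands for no fragment, it allows up to 0.0620 FPKM in S38 and 0.0693 FPKM in S52 (3 fragments, counting error only). The 4 Ig ligands together summed to 1404, 1669 and 1371 FPKM, of which *Icam2* made up 61.4% ± 4.39, *Icam1* 35.6% ± 4.27 and *Vcam1* 2.99% ± 0.176 (SD, n = 3 for each).

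**Figure D1:**
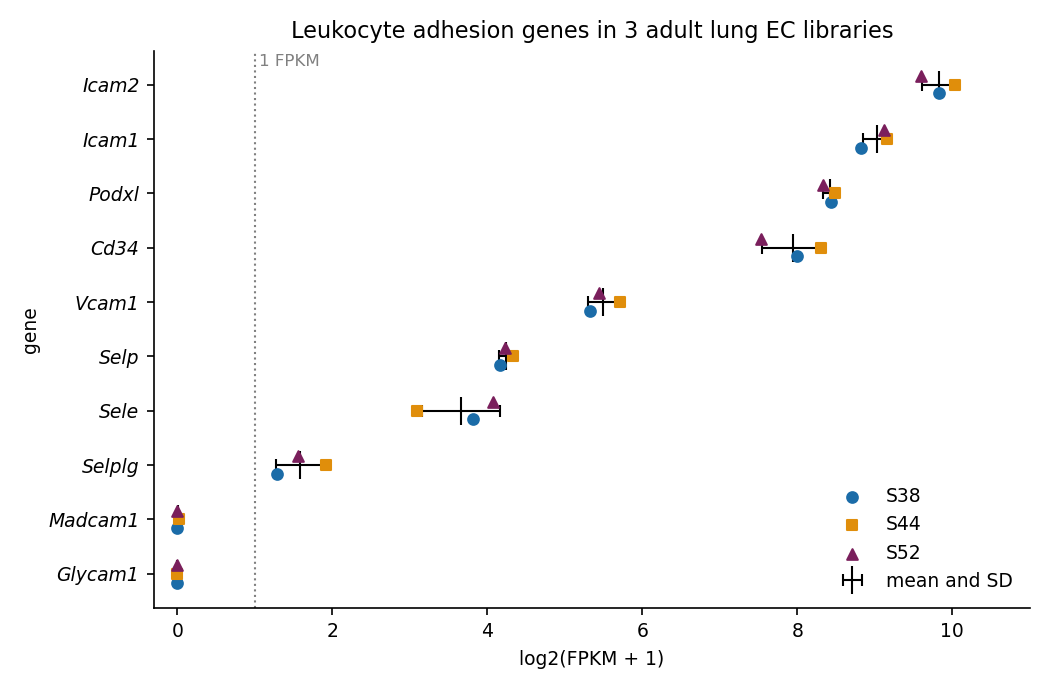
Levels of the 10 adhesion genes, as log2(FPKM + 1) on the horizontal axis, with 1 symbol per library and a bar for the mean and SD over the 3 libraries. The genes run from *Icam2*, at 775 to 1049 FPKM, to *Glycam1*, listed at 0 in each library, and *Sele* and *Cd34* show the widest bars among genes above 10 FPKM.

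Both endothelial selectins were detected, at 7.55 to 19.1 FPKM. *Selp* was at 16.9, 19.1 and 17.7 FPKM, with a mean of 17.9 ± 1.15 FPKM (SD, n = 3), rank 4256. *Sele* was at 13, 7.55 and 15.9 FPKM, with a mean of 12.1 ± 4.22 FPKM (SD, n = 3), rank 5596. *Selp* was nearly level across the libraries, while *Sele* was lowest in S44, where every other detected adhesion gene had its highest value. The lowest *Selp* value lay above the highest *Sele* value, and the difference within a library was 0.35, 1.24 and 0.15 on the log2(FPKM + 1) scale. Its mean of 0.58 was barely larger than its SD of 0.58, and without S38 the mean of 0.69 was smaller than the SD of 0.77, while without S44 it was 0.25 ± 0.14. *Selp* was the higher selectin in each library, and the size of the gap depended on S44.

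P-selectin is stored in Weibel-Palade bodies of ECs and in the alpha granules of platelets. Of 13 genes listed for storage in and release from Weibel-Palade bodies, 12 were at 1 FPKM or above. *Vwf*, whose product drives the formation of these organelles, was at 298, 314 and 235 FPKM, *Vamp8* at 118 ± 1.26 FPKM and *Vamp3* at 91.2 ± 5.08 FPKM (SD, n = 3 for each). *Sytl4*, which encodes granuphilin, was at 16.1, 13.1 and 1.87 FPKM, an order shared with *Unc13d*, at 6.29, 5.72 and 1.27 FPKM. Whether ECs or other cells of the fraction gave the transcripts of *Sytl4* and *Unc13d* was not tested.

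The platelet markers differed between the libraries far more than *Selp* did. *Ppbp*, a platelet chemokine gene, was at 1054, 778 and 16 FPKM, *Pf4* at 329, 284 and 3.76 FPKM, and *Itga2b*, the platelet integrin alphaIIb gene, at 149, 148 and 9.54 FPKM. Each of the 8 platelet markers was lowest in S52 and differed by over 2-fold between the highest and the lowest library. The *Selp* value of S52, the library with a summed platelet level of 2.59% of that of S38, lay between the values of the other libraries.

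*Selplg*, the leukocyte counterpart of P-selectin, was the lowest of the detected adhesion genes. It was at 1.45, 2.78 and 1.93 FPKM, with a mean of 2.06 ± 0.674 FPKM (SD, n = 3), rank 10487, which corresponds to about 93, 183 and 111 fragments. *Selp* exceeded *Selplg* by 2.65 ± 0.23 on the log2(FPKM + 1) scale (SD, n = 3), in every library. Leukocyte markers took another order: *Ptprc*, which encodes the CD45 stained for in the sort, was at 4.3, 2.06 and 0.434 FPKM, *Coro1a* at 16.1, 8.91 and 1.96 FPKM, and *S100a8* at 13.6, 17.8 and 0.251 FPKM. Each of the 10 leukocyte markers was lowest in S52, whereas *Selplg* was lowest in S38.

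**Figure D2:**
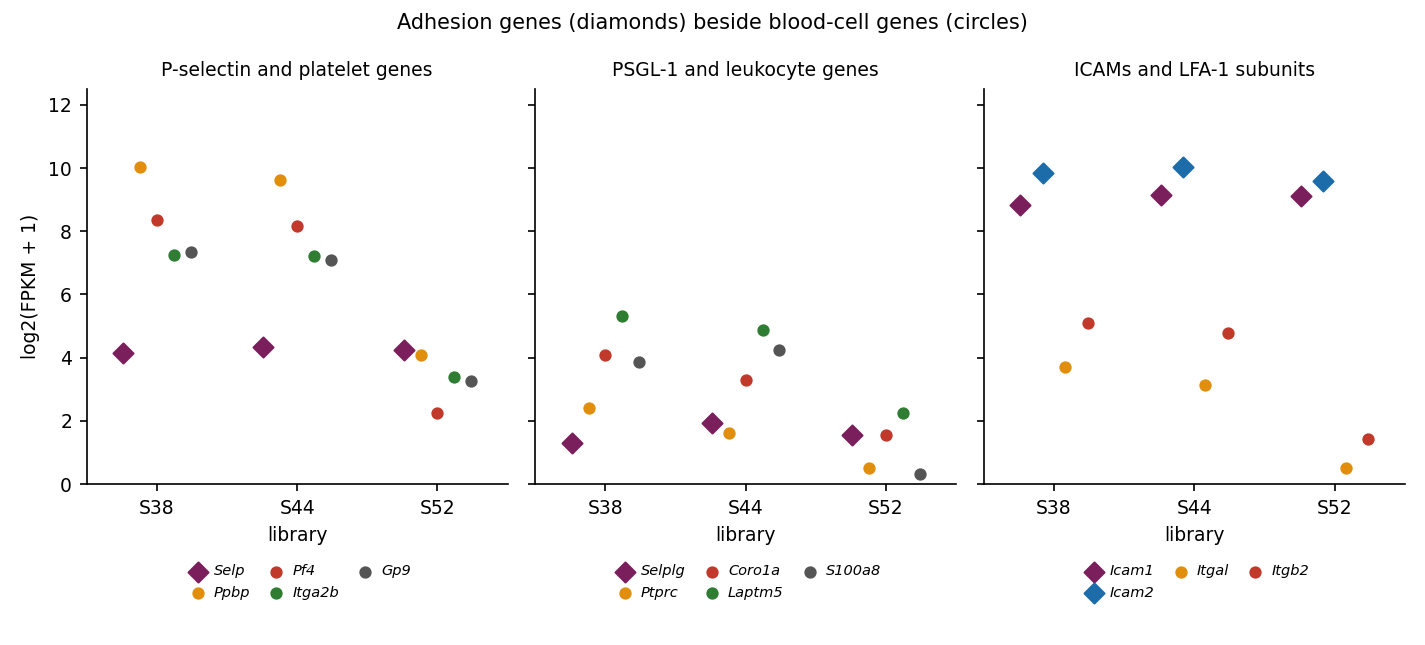
Levels by library, as log2(FPKM + 1), of *Selp* beside platelet genes, of *Selplg* beside leukocyte genes, and of *Icam1* and *Icam2* beside the LFA-1 subunits *Itgal* and *Itgb2*. Diamonds are adhesion genes and circles are blood-cell genes. The circles are much lower in S52 than in S38 (*Ppbp* at 16 against 1054 FPKM), and the diamonds are not.

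Of the mucin-like carriers of selectin ligands, *Podxl* and *Cd34* were among the most abundant transcripts and *Glycam1* was listed at 0. *Podxl*, the podocalyxin gene, was at 346, 359 and 321 FPKM, with a mean of 342 ± 19.4 FPKM (SD, n = 3), rank 311. *Cd34*, a sialomucin gene that marks capillary ECs and blood progenitors, was at 254, 314 and 184 FPKM, with a mean of 251 ± 65.4 FPKM (SD, n = 3), rank 402. *Podxl* varied little, while the *Cd34* value of S44 was 1.71 times that of S52, and their ranges did not overlap. *Podxl* was the higher in each library, by 0.45, 0.19 and 0.80 on the log2(FPKM + 1) scale.

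*Cd34* was lowest in S52, as were *Kdr* and *Cldn5* among the 8 endothelial markers, at 380, 360 and 237 FPKM and at 1486, 1732 and 1029 FPKM. *Emcn*, at 156, 181 and 267 FPKM, was highest there, as were *Erg* and *Egfl7*. *Glycam1*, whose product is a secreted mucin of high endothelial venules, was listed at 0 in all 3 libraries, which would allow up to 0.162, 0.158 and 0.186 FPKM for this short transcript of 641 bp (3 fragments, counting error only). *Ccl21a* and *Chst4*, further genes of high endothelial venules, the first with near-identical copies that may share its reads, were at 9.41, 10.3 and 0 FPKM and at 0.0857, 0.236 and 0 FPKM. *Ackr1*, a marker of venular ECs, was at 0.709, 0.283 and 1.32 FPKM. The highest genes of the same venous and high endothelial list were *Slc6a2*, at 69.4, 81.7 and 23.2 FPKM, and *Ephb4*, at 56.6, 61.4 and 57.0 FPKM.

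The enzymes that build selectin ligands on such carriers ranged from abundant to scarce. Of 16 listed, 13 were at 1 FPKM or above, with a median of 19.3 FPKM over the list. The sialyltransferase gene *St3gal6* was highest at 128 ± 4.95 FPKM, followed by *Tpst2*, which encodes a tyrosine sulfotransferase, at 75.3 ± 5.92 FPKM and by *St3gal1* at 68.7 ± 11.2 FPKM (SD, n = 3 for each). The fucosyltransferase genes *Fut4* and *Fut7* were at the other end. *Fut7* was listed at 0 in S38 and S52 and at 0.0910 FPKM in S44, and *Fut4* was at 0.0600, 0.0365 and 0 FPKM. *Chst2*, a sulfotransferase gene, was at 5.11, 4.68 and 2.14 FPKM. The core 2 enzyme gene *Gcnt1* was at 1.47, 1.80 and 0.0537 FPKM, and with *C1galt1c1*, at 43.5, 44.8 and 20.3 FPKM, it was over 2-fold between libraries.

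**Figure D3:**
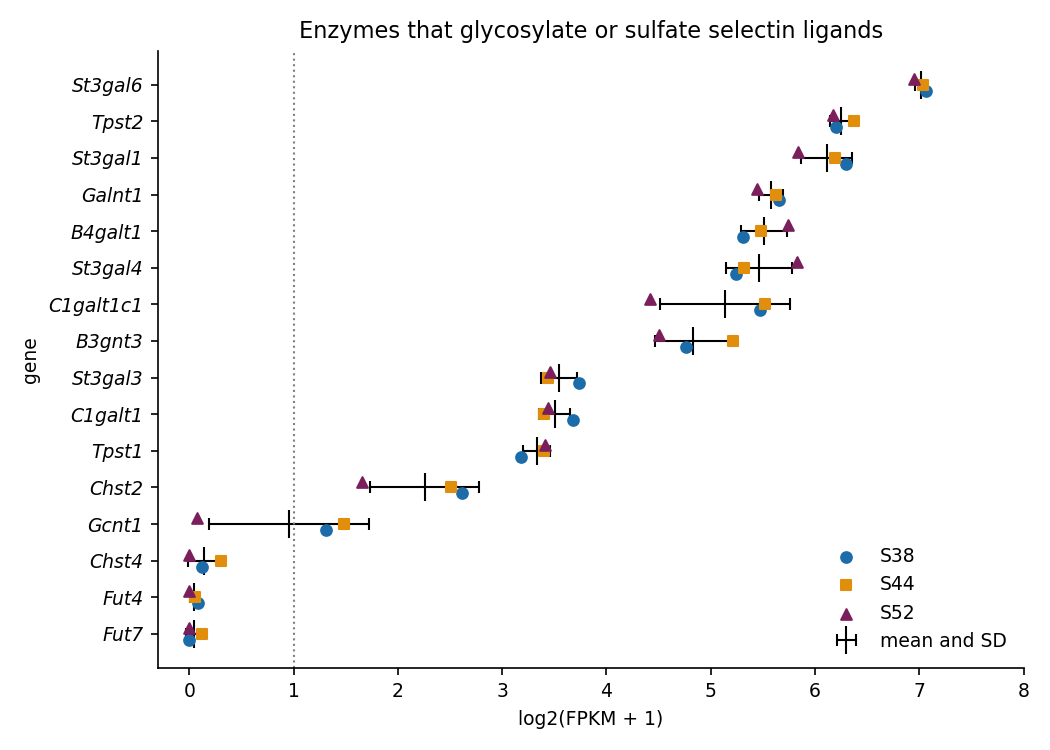
Levels of 16 genes for glycosylation and sulfation of selectin ligands, as log2(FPKM + 1), with 1 symbol per library and a bar for the mean and SD over the 3 libraries. The dotted line stands at 1 FPKM. *St3gal6* is highest, at 128 FPKM on average, and *Fut4*, *Fut7* and *Chst4* lie near 0 in each library.

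Podocalyxin and the ICAMs are tied to actin through ezrin, radixin and moesin, and podocalyxin also binds the NHERF scaffolds. All 12 genes listed for these cytoplasmic partners were at 1 FPKM or above, and none was over 2-fold between libraries. The NHERF2 gene *Slc9a3r2* was at 530, 577 and 697 FPKM, against 14.5, 15.4 and 19.0 FPKM for the NHERF1 gene *Slc9a3r1*. Moesin dominated the linkers, with *Msn* at 519 ± 73.1 FPKM, *Rdx* at 133 ± 28.0 FPKM and *Ezr* at 26.1 ± 5.62 FPKM, beside the actinin gene *Actn4* at 180 ± 10.6 FPKM (SD, n = 3 for each). *Arhgef26*, which encodes the exchange factor SGEF that acts below ICAM-1, was at 25.5 ± 3.40 FPKM (SD, n = 3).

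The 10 genes in the order of their mean levels were *Icam2*, *Icam1*, *Podxl*, *Cd34*, *Vcam1*, *Selp*, *Sele*, *Selplg*, *Madcam1* and *Glycam1*. Of the 9 pairs of neighbours, 8 differed in the same direction in every library by a mean larger than its SD. The exception was *Madcam1* and *Glycam1*, both at or near 0. The genes were sorted on these same values, so the direction of each mean difference was largely set by the sorting. On the log2(FPKM + 1) scale, which compresses steps between low genes, the step from *Cd34* to *Vcam1* was 2.45 ± 0.32 (SD, n = 3) and that from *Podxl* to *Cd34* was 0.48 ± 0.31. With 3 libraries the exact two-sided sign-flip permutation test cannot give a p-value under 0.25, which it gave for each of the 8 pairs, so no difference in level could pass a threshold of 0.05.

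**Figure D4:**
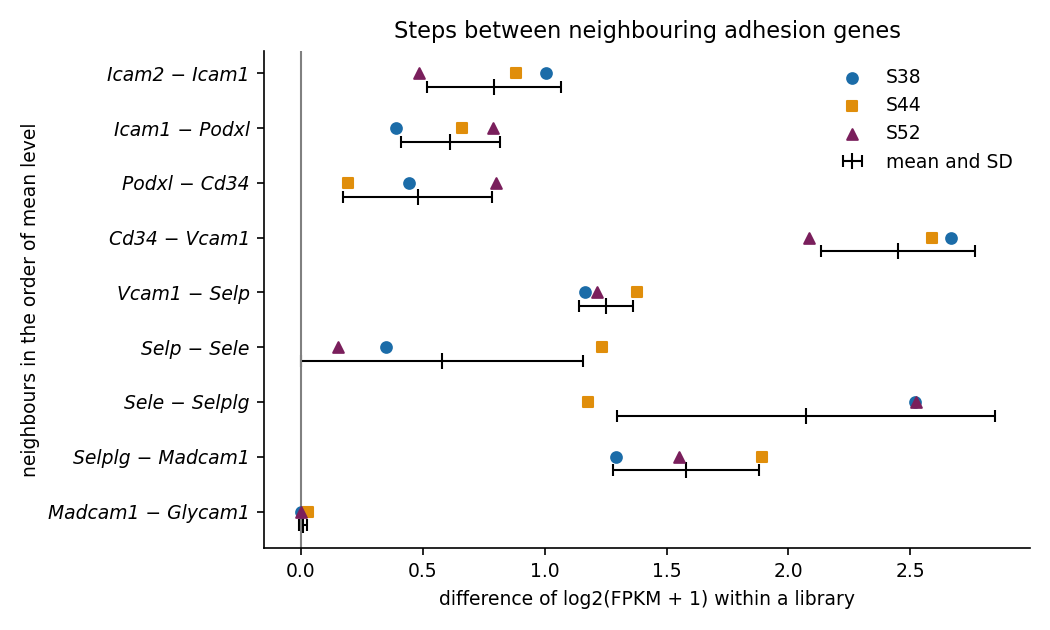
Differences of log2(FPKM + 1) within a library between neighbours in the order of mean level, with 1 symbol per library and a bar for the mean and SD of the 3 differences. Symbols to the right of 0 mean that the first gene was higher. The step from *Selp* to *Sele* is the one whose bar almost reaches 0 among detected genes, with S44 at 1.24 and S52 at 0.15.

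Detection was common among the adhesion genes: 8 of 10 had a mean of at least 1 FPKM, as had 48.3% of all 24346 genes. On FPKM + 1, the highest and lowest library differed by over 2-fold for none of the 8, against 12.7% of the 11770 detected genes, and the median of this ratio was 1.33 for the 8 genes and 1.35 for all detected genes. No test across replicates underlies this count. *Sele*, at 1.97, was just under the limit, and it was over it at 2.08 on FPKM + 0.1, a scale on which 19.3% of the detected genes were. *Cd34* at 1.71 and *Selplg* at 1.54 came next, and the remaining 5 lay between 1.12 for *Podxl* and 1.35 for *Icam2*.

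Beside these ratios stand those of the marker lists. None of the 8 endothelial markers was over 2-fold, with a median ratio of 1.43, whereas all 8 platelet markers, all 9 detected leukocyte markers, all 5 alveolar type 2 markers and all 4 airway markers were, with medians of 16.5, 5.78, 5.17 and 4.18. Fibroblast markers, 1 of 5, and mural markers, 2 of 5, were over it less widely, with medians of 1.36 and 1.91. Of the detected markers of venous and high endothelium 2 of 4 were over it, of lymphatic endothelium 2 of 5, of alveolar type 1 cells 2 of 5 and of mesothelium 1 of 1. Without S52, 0 of the 8 adhesion genes, 0 of 8 platelet markers, 0 of 9 leukocyte markers and 2.14% of all detected genes were over 2-fold, with 1 of 5 alveolar type 2 markers, 1 of 4 mural markers and 1 of 2 mesothelial markers. For the adhesion genes this was set in advance, since leaving out a library cannot raise a ratio. The part of the other cell types in the levels of *Vcam1*, *Cd34* and *Icam1*, which fibroblasts, mural cells and alveolar epithelium can also express, was not tested. The part of platelets in the level of *Selp* and of leukocytes in that of *Selplg* was not tested either.

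**Figure D5:**
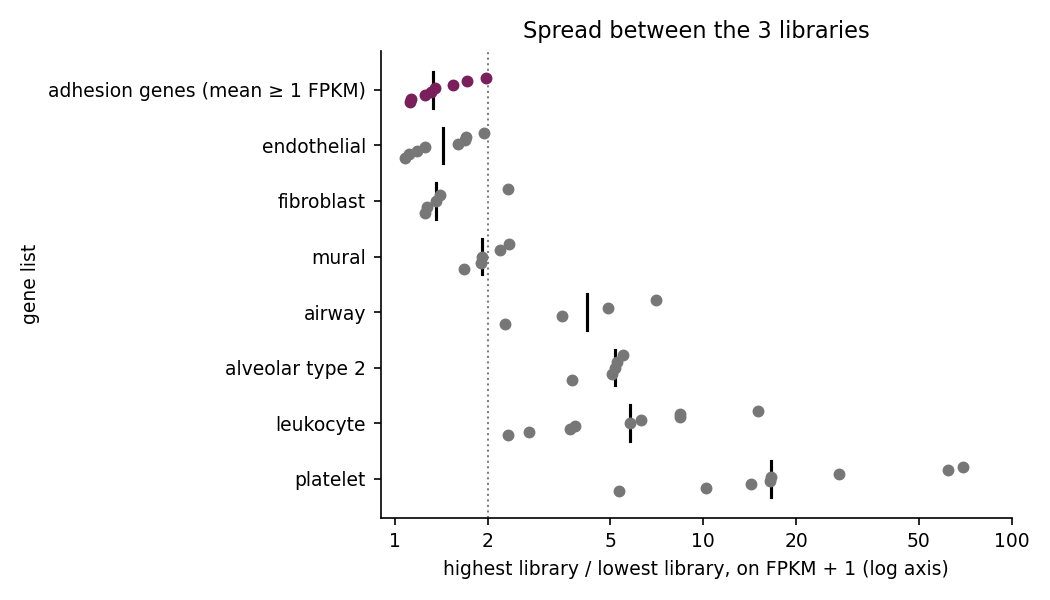
Ratio of the highest to the lowest of the 3 libraries on FPKM + 1, on a log axis, for the 8 detected adhesion genes and for the detected genes of 7 marker lists. Each point is a gene, the black line is the median of a list and the dotted line stands at 2. Adhesion genes reach 1.97 at most, and platelet markers have a median of 16.5.

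The receptors on the leukocyte side were mostly low. Of the 10 listed, 7 were lowest in S52, and 3, *Itga4*, *Itgb7* and *Itgb1*, were highest there. The LFA-1 subunit gene *Itgal* was at 11.9, 7.85 and 0.429 FPKM, and its partner *Itgb2* at 32.9, 26.3 and 1.71 FPKM. *Icam1* and *Icam2*, whose products bind LFA-1, were within 1.35-fold over the same libraries. Of the integrin chains that bind VCAM-1 and MAdCAM-1, *Itga4* was at 1.36 ± 0.160 FPKM and *Itgb7* at 2.99 ± 1.40 FPKM, while *Itgb1*, a chain that ECs themselves use, was at 343 ± 16.9 FPKM (SD, n = 3 for each). In all, 6 of the 10 listed counter-receptor genes were detected, and *Itgal* and *Itgb2* were among those over 2-fold between libraries.

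Other adhesion and transmigration genes of ECs were expressed alongside, 20 of 23 at 1 FPKM or above with a median of 51.5 FPKM. *Pecam1*, at 1168 ± 45.5 FPKM (SD, n = 3), and *Cdh5*, at 921 ± 51.5 FPKM (SD, n = 3), encode proteins of the junction that leukocytes cross, and the mean of *Icam2* lay within 1 SD of that of *Cdh5*. *Cd9*, a tetraspanin gene whose product gathers with ICAM-1 and VCAM-1 in the membrane, was at 953, 936 and 577 FPKM. The ICAM genes beside *Icam1* on chromosome 9 were low, with *Icam4* at 3.01, 3.86 and 2.12 FPKM and *Icam5* at 0.885, 0.779 and 0.645 FPKM. *Cd44* and *Bst1* were over 2-fold between libraries, at 25.5, 22.2 and 9.52 FPKM and at 21.2, 25 and 9.47 FPKM. *Cd44* encodes a protein that can carry E-selectin ligands.

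Shedding frees the outer parts of ICAM-1, VCAM-1 and the selectins, and *Adam17* encodes a sheddase with a known part in it. *Adam17* was at 16.5 ± 1.66 FPKM, *Adam10* at 31.7 ± 6.19 FPKM and *Adam15* at 133 ± 11.7 FPKM (SD, n = 3 for each), and 7 of the 8 genes of that list were detected. *Timp3*, which encodes an inhibitor of these enzymes, was at 285, 303 and 163 FPKM. No gene of the list with a mean of at least 1 FPKM was over 2-fold between libraries.

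All 16 genes listed for cytokine input and response were detected, among them the TNF receptor gene *Tnfrsf1a* at 153 ± 17.8 FPKM and the interleukin-1 receptor gene *Il1r1* at 13.3 ± 1.74 FPKM (SD, n = 3 for each). *Irf1*, a transcription factor gene, was at 404, 636 and 877 FPKM, and *Tnfaip3*, a feedback inhibitor of NF-kappaB, at 31.9, 41.4 and 80.8 FPKM. These were the 2 genes of the list over 2-fold between libraries. *Jun* was at 377 ± 39.8 FPKM (SD, n = 3). *Nfkbia*, the IkappaB alpha gene, had the library order of *Irf1*, at 263, 351 and 488 FPKM. *Icam1*, *Vcam1* and *Sele*, which encode the textbook targets of NF-kappaB named above, were each higher in S52 than in S38. The differences were 0.29, 0.12 and 0.26 on the log2(FPKM + 1) scale. *Selp* and *Selplg* were also higher in S52 than in S38, at 0.07 and 0.26. *Icam2*, *Podxl* and *Cd34* were lower, at -0.23, -0.11 and -0.47. A link between these differences and the cytokine genes was not tested. In S44, *Icam1* and *Vcam1* had their highest values, *Icam1* close to that of S52, and *Sele* had its lowest. With 3 libraries no correlation was computed.

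The positions of the genes on GRCm38 (GENCODE M21) bear on how reads could be assigned, since the libraries carried no strand information. *Icam1* lies on chromosome 9 from 21015985 to 21028817, *Icam2* on chromosome 11 from 106377656 to 106388075, and *Vcam1* on chromosome 3 from 116109949 to 116129688. *Sele*, from 164048234 to 164057677, *Selp*, from 164115264 to 164150026, and *Cd34*, from 194938819 to 194961279, lie on chromosome 1. *Podxl* lies on chromosome 6 from 31519488 to 31563981, *Selplg* on chromosome 5 from 113818536 to 113832644, *Madcam1* on chromosome 10 from 79664559 to 79668537 and *Glycam1* on chromosome 15 from 103562759 to 103565081. Antisense genes overlap 4 of the 10. Of the 51-base windows of the longest transcript, 18.6% in *Icam1*, 14.3% in *Selp*, 4.03% in *Cd34* and 0.322% in *Vcam1* also occur in transcripts of other genes, and 0 do in the other 6 members. Reads from these stretches cannot be told apart by strand, although *Gm16548*, antisense to *Selp*, was listed at 3.11, 4.91 and 3.69 FPKM, and *Gm16897*, antisense to *Cd34*, at 3.44, 4.05 and 4.14 FPKM.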

How the data were processed

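Bulk RNA-seq of sorted adult lung ECs was analysed in 3 libraries of 1 group, set by their labels. The unit is FPKM, in 1 table that the authors deposited, by gene symbol, with mm10 as build. The submitters' processing notes name Trimmomatic 0.36, TopHat2 2.1.0 and Cufflinks 2.2.1, whereas the methods describe STAR and HTSeq for counts that are not used here. The gene annotation behind the table is not given in the sources used here. The libraries were poly-A selected and unstranded, with paired reads of 51 bp. All per-sample columns were used (0 left out).

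Values were used as deposited, without rescaling. Means, SDs and ranks are on the FPKM scale, and differences within a library on log2(FPKM + 1), a pseudocount of 1 that understates differences of low genes. Detection was a mean of at least 1 FPKM. Neighbours in the order of levels, and 6 fixed pairs, were compared within libraries with an exact two-sided sign-flip permutation test. Count models were not used, as FPKM are no counts. The depth was estimated by the step that makes low FPKM, multiplied by length, whole fragments in 7077 genes with 1 basic GENCODE M21 transcript of 800 to 4000 bp, less 150 bp in S38 and S44 and 170 bp in S52. Of the low values, 79.0%, 77.1% and 77.1% lay within 0.15 of a whole number, with a step searched to fit them. The fold rule and the depth estimate were tested on simulated data. Limits for 0 use 3 fragments. Promoters are from RefSeq, which held 6 of the 10 members.

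The members and the gene lists were chosen with earlier results of these data known. Named genes are the members, those acting directly on a member and, of each pathway list, the 3 highest. Pathway genes over 2-fold between libraries with a mean of at least 10 FPKM are also named. The same rule was set for the marker lists, but many marker genes that met it are not named. *Unc13d*, *Gcnt1* and the marker genes outside this rule were named after their values were seen. The values of 1 listed gene are not reported here. The 98 listed pathway genes all had a row, *Nectin2* under an older symbol. Genes with the most similar pattern were to be named for detected members over 2-fold between libraries, which was met by 0 members. Alternatives were leaving out each library, 3 rescalings, a pseudocount of 0.1, other thresholds and a fold of 1.5. Python 3.11.15 with numpy 2.4.6 and pandas 2.3.3 was used.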

Additional observations from a re-analysis of the deposited data

How the results depend on the processing

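Leaving out each library gave 7 to 8 neighbour pairs and 5 to 6 of the 6 fixed pairs beyond their spread, 8 detected members in each case, 0 members over 2-fold, a median level of the 10 members between 29.0 and 32.7 FPKM and between 85 and 88 detected pathway genes (the latter an alternative added after the data were seen). The counts of detected members and of members over 2-fold could not change when a library was left out. Each member lay on the same side of 1 FPKM in every library, and leaving out a library cannot raise a ratio. The pair lost without S38, and with a pseudocount of 0.1, was *Selp* and *Sele*. With every library set to a total of 1000000, the median level of the members went from 31.1 to 22.5 and put 1 member, *Sele*, over 2-fold at 2.15. That rescaling shifted detected genes by a median of -0.43 on the log2(FPKM + 1) scale, the deposited sums being 1153890, 1603596 and 1419351 FPKM. A pseudocount of 0.1 also put 1 member over 2-fold (*Sele*), and a limit of 1.5-fold put 3 over it (*Sele*, *Selplg* and *Cd34*). Levels of single members stayed within 1 SD in 54 of 60 alternative values, and the 6 that moved did so under the rescaling to 1000000. Leaving out 1 of 3 libraries cannot shift a mean by 1 SD, and *Glycam1*, at 0 throughout, cannot shift at all. Those values were bound to stay, so the count says little about stability. Short noncoding genes made up 60.2%, 70.3% and 67.0% of the deposited sums of S38, S44 and S52. They were set by symbol patterns that also cover genes of longer ribosomal RNAs. Rescaling to the same sum without these genes left 0 members over 2-fold and the median level of the members at 31.1. None of the 42 alternative values of the fixed pairs changed sign, and none could have. Each pair had the same direction in every library, and no alternative changes an order within a library. The smallest exact p-value that 3 libraries allow is 0.25, and 2 libraries allow no less than 0.5. Depth limits *Madcam1* and *Glycam1*, at 0 to 1 fragment. Pairing between conditions was not possible because there is 1 group.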
